A study of Rattus norvegicus with 13 samples.

Results

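The comparison described here is that of sonogenetic with WT rat hearts at 2 months: 4 of the 13 bulk RNA samples of the series, namely 2 ST and 2 WT hearts, taken from the 2-month count table alone and described over every gene that passed a count filter. The ST hearts (genotype MscL-G22S) were transduced with AAV2/9-cTnT-MscL-G22S-mCherry, an adeno-associated virus that carries a mutant of a bacterial mechanosensitive channel and the red fluorescent protein mCherry behind the cardiac troponin T promoter, which is active in heart muscle cells. The WT hearts (genotype WT) had no treatment. The controls thus lack the virus as well as the channel, so that virus, channel, fluorescent protein and anything else done to the ST group cannot be told apart. The labels call the samples biological replicates, and do not say whether 2 months is an age or a time since transduction, nor whether ultrasound was given. The p-values measure the spread between these 4 hearts.

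MscL is a channel that opens when the membrane around it is stretched, and the G22S change makes it open more easily, which is why it is used to make cells respond to ultrasound. Cyclic AMP, made when adrenergic hormones or other signals reach a heart cell, activates protein kinase A and the transcription factor CREB, which binds the cAMP response element and turns on Nr4a receptors, Sik1, Crem and Ppargc1a. Glucocorticoid hormone acts through its own nuclear receptor on genes such as Fkbp5, Tsc22d3, Zbtb16 and Klf15, and in muscle both signals favour the use of fat over glucose.

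Promoter sequences are shown for called genes of the cAMP, interferon and antigen presentation lists, whose members have long been studied through such elements. They come from RefSeq (rat assembly GRCr8), a window around each gene's start. The cAMP response element (CRE) was searched as TGACGTCA, on both strands, and 1.83% of all 33469 promoters hold it. Of 8 genes of the cAMP list that were higher in ST hearts 6 had a promoter entry, and 2 of these held the CRE, Ppargc1a and Crem. Capitals mark the match. The Ppargc1a stretch lies at chr14:63634107-63634154, plus strand, with the match 181 bases before the start. The Crem stretches belong to separate starts of the gene, at chr17:58984721-58984768, plus strand, and chr17:58985435-58985482, plus strand, with the match 56 and 35 bases before the start.
Ppargc1a: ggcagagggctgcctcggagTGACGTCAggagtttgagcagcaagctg
Crem, first start: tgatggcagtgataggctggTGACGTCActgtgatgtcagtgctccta
Crem, second start: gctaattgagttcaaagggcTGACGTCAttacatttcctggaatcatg

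For genes that fell in ST hearts the core of the interferon-stimulated response element was searched as GAAANNGAA, again on both strands, and 9.71% of all promoters hold it. Of 17 lower genes of the interferon list 12 had a promoter entry, and 10 of these held the core. Of 11 lower genes of the antigen presentation list 10 had an entry, and 6 held it. These are counts of genes, which can have several starts, whereas 9.71%, like 1.83% for the CRE, is a share of promoters. The 3 shown are those of Psmb10, an immunoproteasome subunit (chr19:50743293-50743385, minus strand), with 3 overlapping or neighbouring matches, of Bst2, a membrane protein that holds back budding viruses (chr16:18255064-18255118, minus strand), with 2 overlapping ones, and of Tap1, which carries peptides into the endoplasmic reticulum (chr20:4668635-4668683, minus strand), where the match reads on the other strand. A match says only that these letters are present.
Psmb10: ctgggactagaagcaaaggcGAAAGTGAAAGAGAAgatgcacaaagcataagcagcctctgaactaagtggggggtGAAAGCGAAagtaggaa
Bst2: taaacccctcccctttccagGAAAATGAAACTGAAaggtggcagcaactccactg
Tap1: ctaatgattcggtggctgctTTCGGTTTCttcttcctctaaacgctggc

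Library totals were 8.70 and 6.54 M counts in the WT hearts and 11.3 and 8.52 M counts in the ST hearts, so that 3 counts, the limit that a count of 0 allows, come to between 0.266 and 0.459 CPM (counts per M counts). Across genes, log2 CPM of any pair of libraries correlated with r from 0.970 to 0.985. The transgene set the groups apart: MSCL-G22S had 0 counts in both WT libraries and 127 and 94 in the ST libraries, at least 57.3-fold higher when the WT group is set to 3 counts in all. On that check the labels held. The tissue label held too: the 11 tested heart muscle markers summed to 152000 and 162000 CPM in WT and to 165000 and 172000 CPM in ST hearts. Some abundant RNAs held different shares of the libraries. Ttn, the giant spring protein of the sarcomere, held 8.09% and 8.27% of counts in WT and 9.99% and 9.52% in ST hearts, and the RNA of the signal recognition particle listed as Metazoa_SRP held 0.917% and 0.726% against 0.416% and 0.602% (exact permutation test, two-sided, p = 0.333 for each, the smallest p that 2 against 2 allow).

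Of 12121 genes tested, 582 differed at an adjusted p under 0.05 (4.80%): 327 were higher (2.70%) and 255 lower (2.10%) in ST hearts. Here and below, levels are CPM scaled by TMM, fold changes are log2 values of ST minus WT with their standard error after the sign ±, n is 2 a group, and adjusted p-values are those of edgeR's quasi-likelihood test with Benjamini-Hochberg adjustment over all genes tested. At an unadjusted p under 0.05 there were 2259 genes. Changes were moderate: the median log2 fold change was 0.82 among higher genes and -0.90 among lower genes, and 111 genes in each direction reached 2-fold. All 582 had ST libraries on one side of both WT libraries. Such separation is common in so small a design, since over all genes tested both ST libraries lay above both WT libraries for 24.8% and below for 24.1%.

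**Figure D1:**
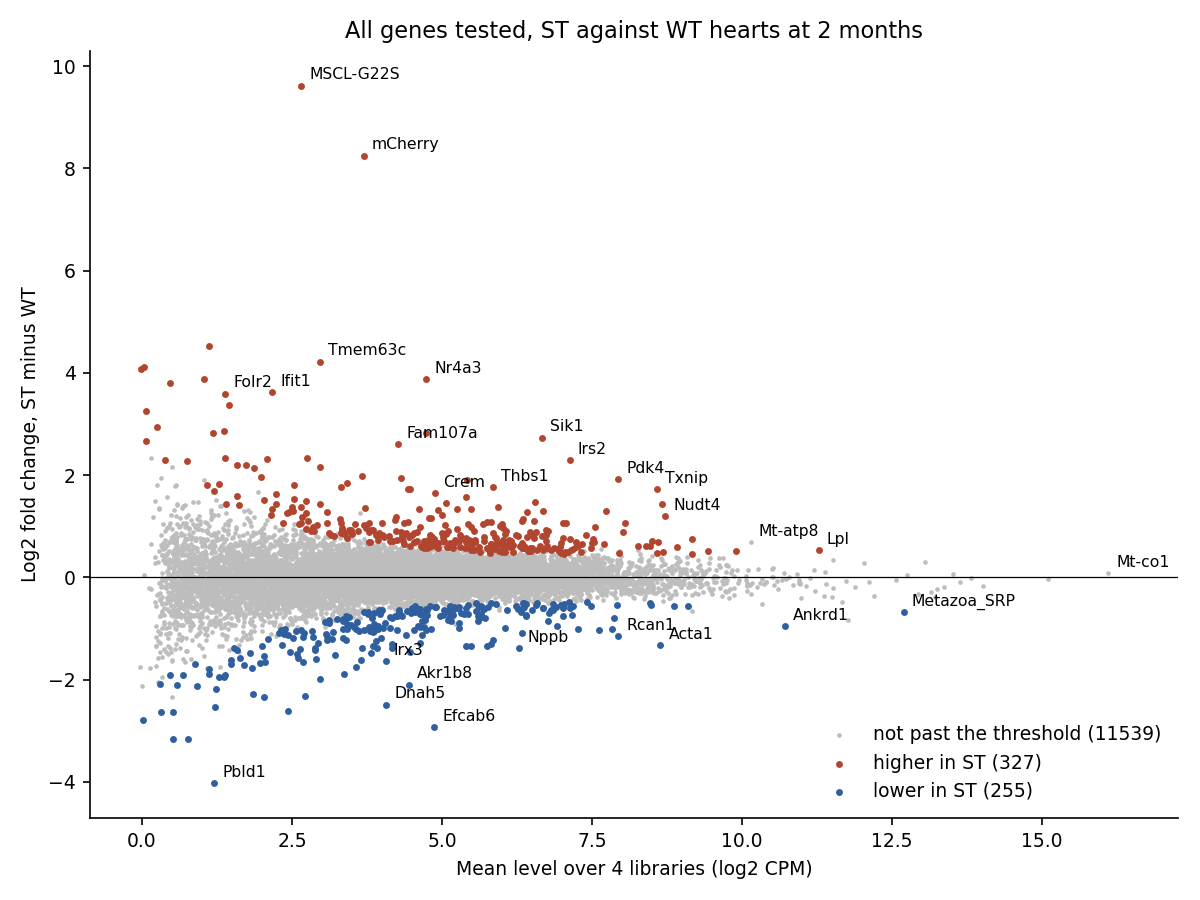
Each point is 1 of 12121 genes, with its mean level over the 4 libraries (log2 CPM) on the horizontal axis and its log2 fold change, ST minus WT, on the vertical axis. Red marks the 327 genes higher and blue the 255 genes lower in ST hearts at an adjusted p under 0.05; the transgene stands at the top, and most called genes lie within 2 units of 0.

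Single libraries weighed on the calls. With any 1 library left out 171 of the 582 genes were still called in all 4 fits (93 higher, 78 lower), 137 in 3 of them, 180 in 2, 87 in 1 and 7 in none. The count of calls was 271 without WT replicate 1, 407 without WT replicate 2, 632 without ST replicate 1 and 2013 without ST replicate 2. Since this total moved with the library left out, a list's count in 1 such fit does not by itself describe that list. DESeq2 called 355 genes, 350 of them shared. Genes described below were called in all 4 leave-one-out fits unless a sentence says otherwise.

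The share of members called differed widely between gene lists. On the side of higher genes were 9 of 22 tested glucocorticoid-responsive genes, 8 of 40 cAMP and adrenergic genes and 6 of 24 genes of lipid droplets and lipases, against 2.70% of all genes. Of shorter lists that are not drawn, 4 of 8 mesothelial and epicardial, 4 of 12 atrial and 2 of 5 erythroid genes were higher, shares above those of the cAMP and lipid lists. On the side of lower genes were 17 of 38 interferon and 11 of 25 antigen presentation genes, against 2.10% of all genes. Calcium cycling and the nuclear mitochondrial lists shown had 0 or 1 call each. Every count of called list members below is to be read beside the same shares of all genes, 2.70% higher and 2.10% lower.

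**Figure D2:**
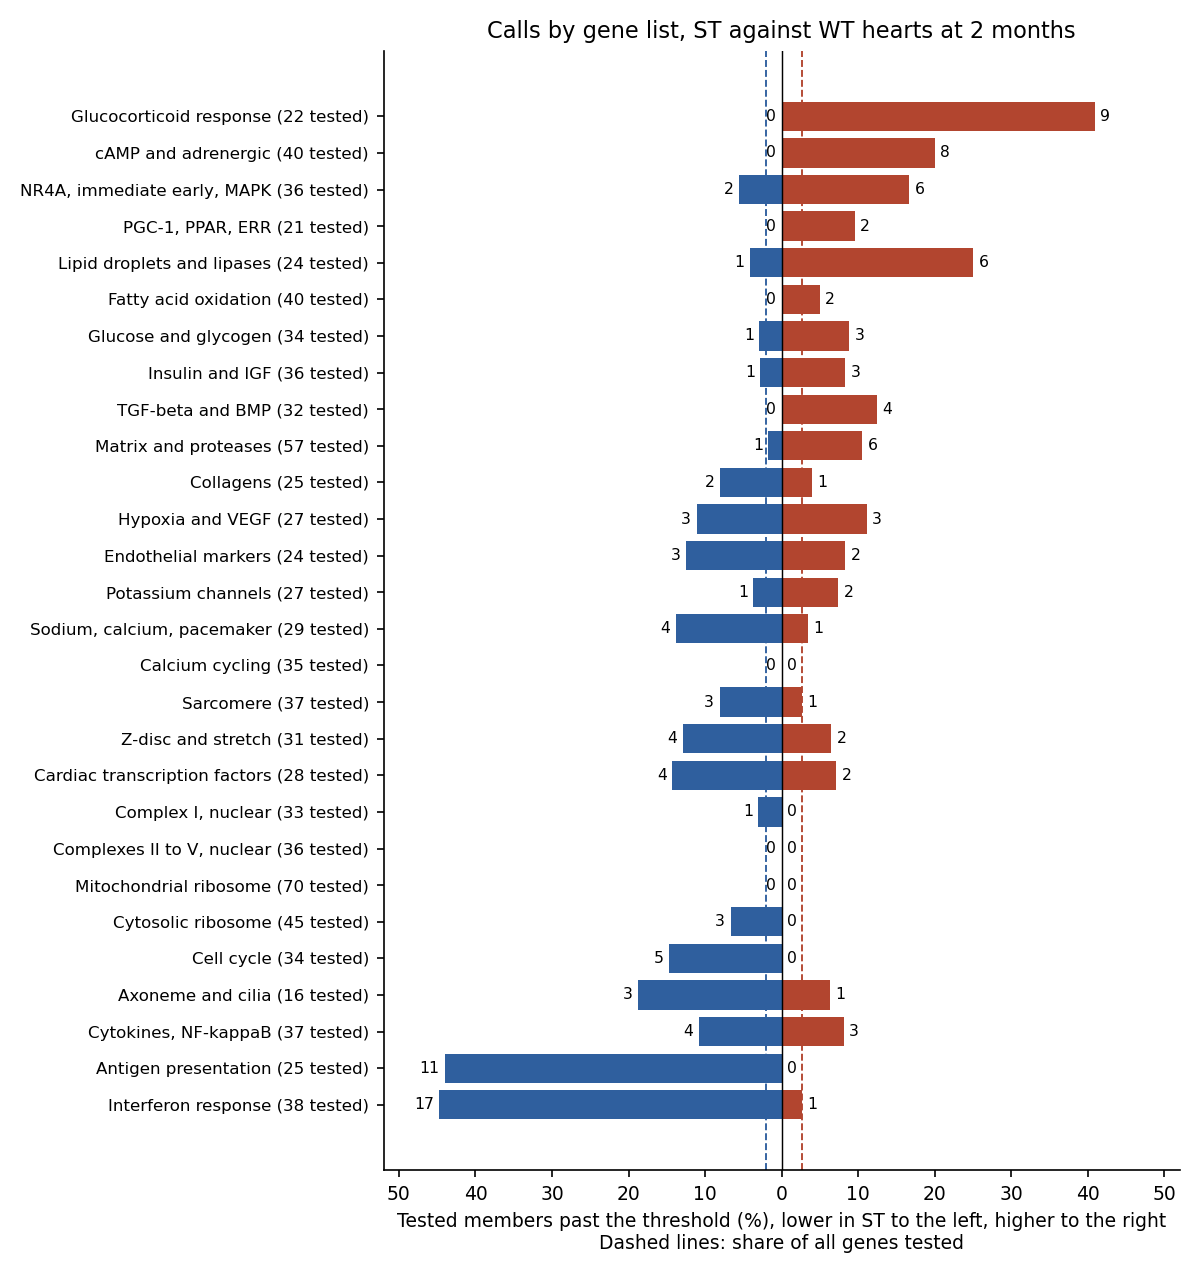
For the gene lists drawn (tested members in parentheses) the bars give the percentage of tested members past the threshold, lower in ST hearts to the left and higher to the right, with the number of genes at each bar's end. Dashed lines mark the shares over all genes tested, 2.10% and 2.70%; among the lists drawn, glucocorticoid-responsive genes reach farthest to the right and interferon and antigen presentation genes farthest to the left.

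Of the 40 tested members of the cAMP list 8 were higher and 0 lower, and the rest did not pass the test. Sik1, a kinase that CREB induces and that switches off CREB's coactivators, had 25.9 and 26.8 CPM in WT and 151 and 199 CPM in ST hearts (log2 fold change 2.73 ± 0.16, adjusted p = 1.71e-08). Crem, whose short product ICER represses cAMP-driven genes, had 14.4 and 13.3 CPM in WT and 47.1 and 40.04 CPM in ST hearts (log2 fold change 1.65 ± 0.16, adjusted p = 1.09e-05). In both genes the ST hearts lay above the WT hearts by more than they differed from each other. The phosphodiesterase Pde7b, which breaks down cAMP and was picked after its values were seen, had 32.9 and 34.3 CPM in WT and 94.7 and 79.97 CPM in ST hearts (log2 fold change 1.38 ± 0.14, adjusted p = 1.59e-05). Pde4d, another phosphodiesterase, had 44.1 and 53.5 CPM in WT and 89.7 and 70.9 CPM in ST hearts (log2 fold change 0.73 ± 0.15, adjusted p = 0.0088), and the weakly expressed Pde10a had 2.90 and 2.98 CPM in WT and 7.03 and 7.30 CPM in ST hearts (log2 fold change 1.28 ± 0.28, adjusted p = 0.0131). Gnai3, an inhibitory G protein subunit that lowers cAMP production, had 34.4 and 32.3 CPM in WT and 75.2 and 61.9 CPM in ST hearts (log2 fold change 1.04 ± 0.14, adjusted p = 0.000287). Sik1, Crem, Gnai3 and the phosphodiesterases are brakes on the pathway by their known roles, and were set together for that role. The called members Nr4a1, Nr4a3 and Ppargc1a are not brakes of this kind. Brakes that did not pass the test were not counted. Pde4d (adjusted p = 0.208) and Pde10a (0.0904) were not called without WT replicate 1. Pde10a was not called by DESeq2.

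No adrenergic receptor or adenylyl cyclase of the list passed the test. The other called members were Nr4a1, Nr4a3 and Ppargc1a. The median log2 fold change of the list was 0.14, against -0.000438 over all genes. Both ST libraries lay above both WT libraries for 16 of the 40 members and below for 10, beside 24.8% and 24.1% of all genes. Adrb1, the main cardiac beta-adrenergic receptor, had 49 and 42.8 CPM in WT and 35.1 and 45.2 CPM in ST hearts (log2 fold change -0.20 ± 0.15, adjusted p = 0.525), with overlapping groups. The cyclase Adcy5 had 307 and 296 CPM in WT and 222 and 287 CPM in ST hearts (log2 fold change -0.25 ± 0.14, adjusted p = 0.363), and Creb1 itself 53 and 51 CPM in WT and 64.5 and 51.1 CPM in ST hearts (log2 fold change 0.16 ± 0.14, adjusted p = 0.614). Neither passed the test. Adrenergic and cAMP genes called higher and lower numbered 12 and 5 without ST replicate 2.

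Beyond Nr4a1 and Nr4a3, the third NR4A receptor, Nr4a2, was also higher, at 2.79 and 2.67 CPM in WT and 8.54 and 7.18 CPM in ST hearts (log2 fold change 1.52 ± 0.28, adjusted p = 0.00394). Among other genes of the immediate early list, Maff, a small bZIP protein, had 7.70 and 5.33 CPM in WT and 13.1 and 12.2 CPM in ST hearts (log2 fold change 0.93 ± 0.22, adjusted p = 0.0224), while Jund, an AP-1 subunit, had 104 and 75.1 CPM in WT and 56.4 and 64.8 CPM in ST hearts (log2 fold change -0.57 ± 0.15, adjusted p = 0.0437) and Dusp8, a phosphatase of stress kinases, 33.4 and 28.2 CPM in WT and 19.7 and 17.9 CPM in ST hearts (log2 fold change -0.71 ± 0.16, adjusted p = 0.015). The list as a whole had 6 higher and 2 lower members of 36, with a median of 0.04. Immediate early genes called higher and lower numbered 6 and 0 without WT replicate 1, 6 and 5 without ST replicate 2 and 5 and 1 with DESeq2. Maff (adjusted p = 0.226) was not called without WT replicate 2. Jund (adjusted p = 0.75) and Dusp8 (0.289) were not called without WT replicate 1. Maff and Jund were not called by DESeq2.

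Glucocorticoid-responsive genes moved in 1 direction: 9 of the 22 tested were higher and 0 lower, the median log2 fold change was 0.43, and 14 had both ST libraries above both WT libraries while 0 had them below (24.8% and 24.1% of all genes). Fam107a, an actin-binding protein, had 4.46 and 6.12 CPM in WT and 35.8 and 27.1 CPM in ST hearts (log2 fold change 2.60 ± 0.22, adjusted p = 1.48e-06). Tsc22d3, which encodes the anti-inflammatory protein GILZ, had 55.7 and 51.1 CPM in WT and 99.5 and 91.6 CPM in ST hearts (log2 fold change 0.84 ± 0.13, adjusted p = 0.000996). Fkbp5, a chaperone of the glucocorticoid receptor and a usual readout of the hormone, had 39.1 and 36.5 CPM in WT and 62.3 and 69.1 CPM in ST hearts (log2 fold change 0.79 ± 0.14, adjusted p = 0.002). Each of these had a clear gap between the groups, and the pairs of libraries were tighter in Tsc22d3 and Fkbp5 than in Fam107a. The kinase Map3k6 had 6.70 and 2.67 CPM in WT and 16.9 and 22.1 CPM in ST hearts (log2 fold change 1.98 ± 0.28, adjusted p = 0.000377), with a wide spread within the WT pair. Klf15, which directs amino acid and lipid use in the heart, had 40.3 and 46.7 CPM in WT and 62.4 and 73.7 CPM in ST hearts (log2 fold change 0.65 ± 0.14, adjusted p = 0.0134).

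The other called members were Pdk4, Zbtb16, Glul and Sult1a1; log2 fold changes were 0.74 for Zbtb16, a transcription factor, 0.58 for Glul, glutamine synthetase, and 0.85 for Sult1a1, a sulfotransferase. Klf15 (adjusted p = 0.302), Glul (0.108) and Sult1a1 (0.33) were not called without WT replicate 1. Zbtb16 (adjusted p = 0.0587) and Glul (0.275) were not called without WT replicate 2. Sult1a1 (adjusted p = 0.0516) was not called without ST replicate 2. Sult1a1 was not called by DESeq2. Not all usual targets passed: Sgk1 (0.38, adjusted p = 0.22), Per1 (0.36, adjusted p = 0.2), Ddit4 (0.46, adjusted p = 0.199) and Klf9 (0.10, adjusted p = 0.73) did not, and the receptor gene Nr3c1 had 178 and 182 CPM in WT and 231 and 184 CPM in ST hearts (log2 fold change 0.21 ± 0.14, adjusted p = 0.451). Since cAMP and glucocorticoid lists share Per1 and several members respond to both signals, the lists are not independent.

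The pair of insulin receptor substrates moved apart. Irs2, which couples the insulin receptor to PI3 kinase, had 46.1 and 47.7 CPM in WT and 234 and 228 CPM in ST hearts (log2 fold change 2.30 ± 0.13, adjusted p = 1.71e-08), with close pairs of libraries and a wide gap between them. Irs1, its close relative, had 102 and 111 CPM in WT and 63.5 and 62.8 CPM in ST hearts (log2 fold change -0.75 ± 0.13, adjusted p = 0.00197). The receptors Insr (log2 fold change -0.02 ± 0.12, adjusted p = 0.958) and Igf1r (log2 fold change 0.04 ± 0.14, adjusted p = 0.918) did not pass the test. In the list of insulin and growth signalling 3 of 36 were higher and 1 lower (2.70% and 2.10% of all genes). Beside Irs2 and Irs1 these were Sesn1, a sestrin, at 0.61, and Igfbp6, an IGF-binding protein, at 0.81. Insulin and growth genes called higher and lower numbered 1 and 1 without WT replicate 1, 1 and 1 without WT replicate 2, 5 and 3 without ST replicate 1 and 6 and 3 without ST replicate 2. Sesn1 (adjusted p = 0.314) and Igfbp6 (0.102) were not called without WT replicate 1. Sesn1 (adjusted p = 0.0514) and Igfbp6 (0.311) were not called without WT replicate 2. Igfbp6 (adjusted p = 0.0833) was not called without ST replicate 1. Igfbp6 was not called by DESeq2.

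Of 34 tested members of the glucose list 3 were higher and 1 lower (2.70% and 2.10% of all genes). Txnip, an arrestin-like protein that pulls glucose transporters from the membrane, had 164 and 189.8 CPM in WT and 547 and 625 CPM in ST hearts (log2 fold change 1.73 ± 0.14, adjusted p = 9.59e-07), and its relative Arrdc4 had 13.8 and 15.5 CPM in WT and 24.5 and 29.4 CPM in ST hearts (log2 fold change 0.88 ± 0.17, adjusted p = 0.00553). Pdk4, which shuts pyruvate out of the citric acid cycle, was higher as well (log2 fold change 1.92 ± 0.14, adjusted p = 2.61e-07). Txnip, Arrdc4 and Pdk4 are set side by side for their known roles in restraining glucose use, not as a list. Pfkfb3, which makes an activator of glycolysis, was lower, with 25.3 and 22.9 CPM in WT and 16.2 and 13.4 CPM in ST hearts (log2 fold change -0.70 ± 0.17, adjusted p = 0.0246). Of the glucose transporters, Slc2a1 had 24.4 and 15.5 CPM in WT and 31 and 36 CPM in ST hearts (log2 fold change 0.72 ± 0.19, adjusted p = 0.0333), and Slc2a12 11.7 and 14.4 CPM in WT and 21.3 and 21.3 CPM in ST hearts (log2 fold change 0.72 ± 0.17, adjusted p = 0.0252). The insulin-regulated transporter Slc2a4 (log2 fold change -0.03 ± 0.15, adjusted p = 0.943) and hexokinase Hk2 (log2 fold change 0.12 ± 0.15, adjusted p = 0.712) did not pass. Beside Slc2a1 and Slc2a12 the third higher member of the list was Phkg1, a glycogen phosphorylase kinase subunit, at 1.18. Glucose genes called higher and lower numbered 1 and 0 without WT replicate 1, 2 and 2 without ST replicate 1, 4 and 2 without ST replicate 2 and 0 and 0 with DESeq2. Arrdc4 (adjusted p = 0.0849), Pfkfb3 (0.263), Slc2a12 (0.412) and Phkg1 (0.081) were not called without WT replicate 1. Slc2a1 (adjusted p = 0.433) was not called without WT replicate 2. Phkg1 (adjusted p = 0.0579) was not called without ST replicate 1. Slc2a1 had a log2 fold change of 1.11 without WT replicate 1. Pfkfb3, Slc2a1, Slc2a12 and Phkg1 were not called by DESeq2.

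Lipid handling had 6 higher members and 1 lower of 24, with a median of 0.24. Lpl, the lipase that frees fatty acids from lipoproteins at the vessel wall, had 1814 and 2254 CPM in WT and 2977 and 2897 CPM in ST hearts (log2 fold change 0.53 ± 0.15, adjusted p = 0.0453). Gpihbp1, the endothelial protein that holds Lpl there, had 9.49 and 13.5 CPM in WT and 21.3 and 28.5 CPM in ST hearts (log2 fold change 1.13 ± 0.20, adjusted p = 0.00315). Both partners were thus higher in each ST heart than in either WT heart. The droplet proteins Plin5 (13.1 and 16.3 CPM in WT and 22.1 and 27.9 CPM in ST hearts, log2 fold change 0.77 ± 0.18, adjusted p = 0.0211) and Plin4 (0.50) were higher too. So were Lipe, hormone-sensitive lipase (0.73), and Lpin1, a phosphatidate phosphatase (0.59). The lipase Pnpla3 was lower (log2 fold change -2.31 ± 0.26, adjusted p = 5.82e-05), while Pnpla2, the main lipase of heart droplets, did not pass (log2 fold change 0.26 ± 0.15, adjusted p = 0.373). Lpl (adjusted p = 0.65), Plin5 (0.303), Plin4 (0.431), Lipe (0.367) and Lpin1 (0.536) were not called without WT replicate 1. Lpl (adjusted p = 0.0882) and Plin4 (0.246) were not called without WT replicate 2. Lipe (adjusted p = 0.0532) was not called without ST replicate 2. Plin5 was not called by DESeq2. Lipid genes called higher and lower numbered 1 and 1 without WT replicate 1 and 6 and 2 without ST replicate 2.

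In the fatty acid list 2 of 40 were higher (2.70% of all genes) and 0 lower, with a median of 0.05. Those were Ucp2, a carrier of the inner mitochondrial membrane (281 and 312 CPM in WT and 437 and 523 CPM in ST hearts; log2 fold change 0.69 ± 0.14, adjusted p = 0.00565), and Cpt1a, the liver form of the enzyme that admits fatty acids to mitochondria (49.99 and 51.6 CPM in WT and 66.5 and 78.8 CPM in ST hearts; log2 fold change 0.51 ± 0.14, adjusted p = 0.0378). Fatty acid genes called higher and lower numbered 0 and 0 without WT replicate 1, 4 and 2 without ST replicate 2 and 1 and 0 with DESeq2. The muscle form Cpt1b had 398 and 456 CPM in WT and 435 and 512 CPM in ST hearts (log2 fold change 0.15 ± 0.14, adjusted p = 0.609), with overlapping groups. Cholesterol exporters Abca1 (0.58) and Abcg1 (0.65) were the only calls of 27 in their list. Cholesterol genes called higher and lower numbered 0 and 0 without WT replicate 1, 0 and 0 without WT replicate 2, 3 and 3 without ST replicate 2 and 1 and 0 with DESeq2. Bckdha, a subunit of the enzyme that commits branched-chain amino acids to breakdown, was lower, at 157 and 169 CPM in WT and 82.2 and 110.0 CPM in ST hearts (log2 fold change -0.77 ± 0.15, adjusted p = 0.00475). Of the phosphate-transfer enzymes, Ak1, adenylate kinase, had 259.7 and 269 CPM in WT and 102 and 159 CPM in ST hearts (log2 fold change -1.02 ± 0.17, adjusted p = 0.00143), and Ckb, brain-type creatine kinase, 116 and 105 CPM in WT and 57.8 and 84.6 CPM in ST hearts (log2 fold change -0.64 ± 0.16, adjusted p = 0.0276). Ucp2 (adjusted p = 0.159), Cpt1a (0.397), Abca1 (0.287), Abcg1 (0.53) and Ckb (0.198) were not called without WT replicate 1. Cpt1a (adjusted p = 0.246), Abca1 (0.169) and Abcg1 (0.0526) were not called without WT replicate 2. Ckb (adjusted p = 0.07) was not called without ST replicate 1. Cpt1a and Abcg1 were not called by DESeq2.

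**Figure D3:**
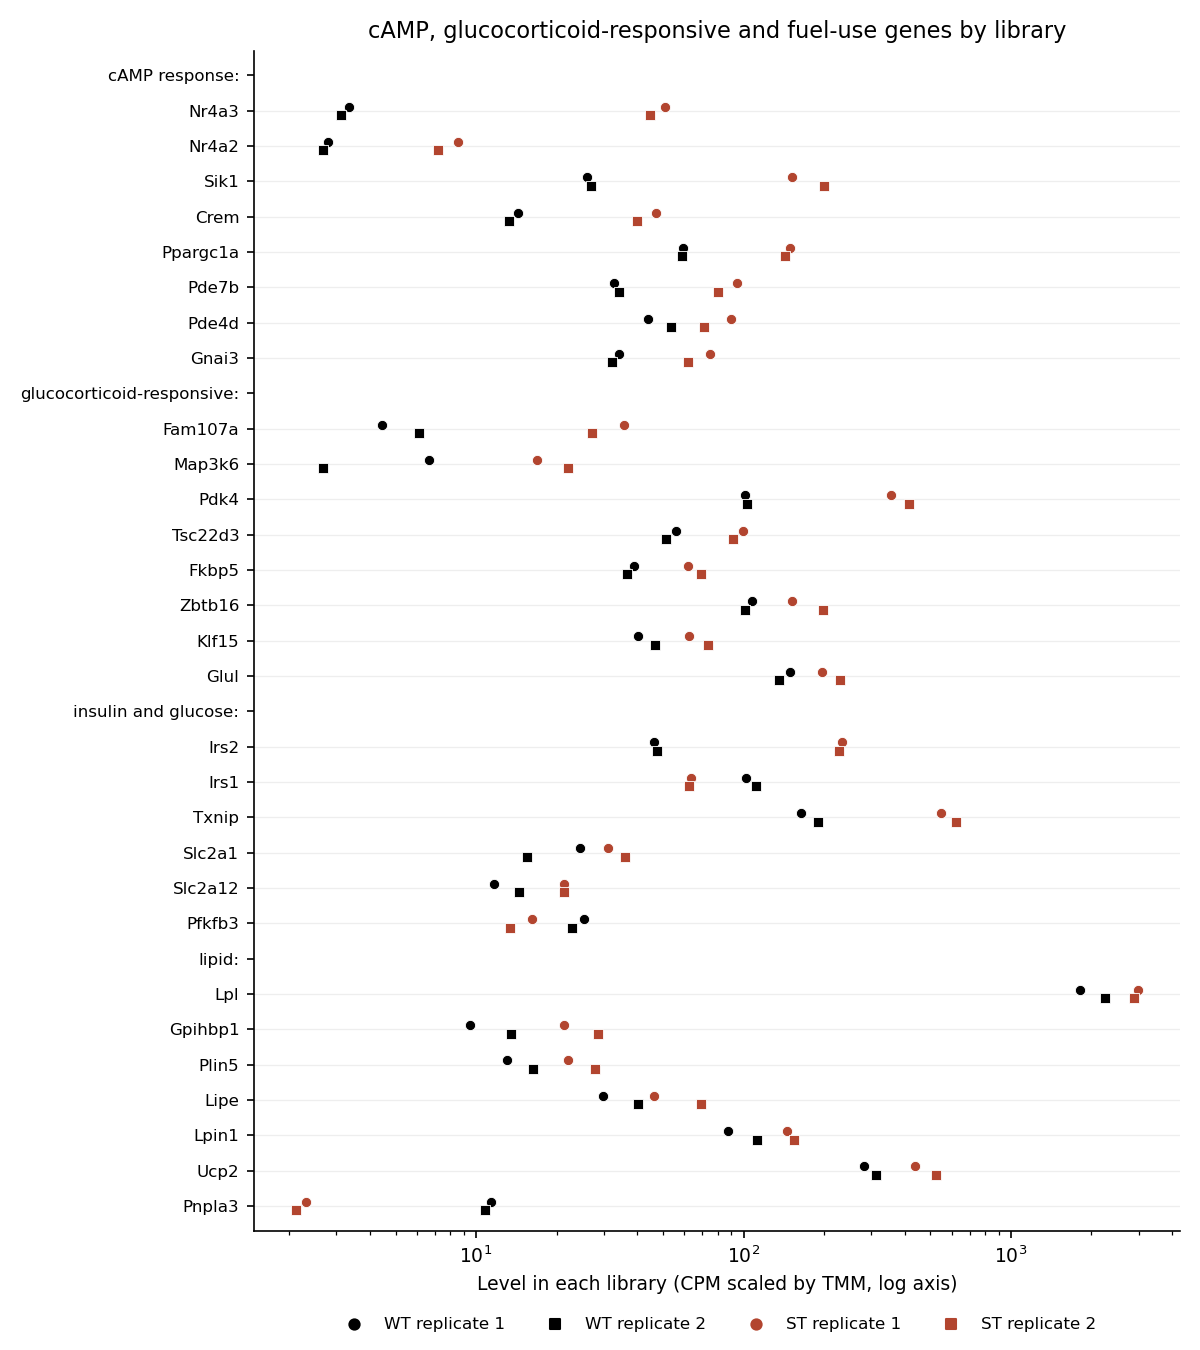
Level of each gene in each of the 4 libraries (CPM scaled by TMM, log axis), WT in black and ST in red, replicate 1 as circles and replicate 2 as squares. In Sik1, Crem, Fam107a, Irs2 and Txnip the red points stand well to the right of the black ones, while in Lpl, Slc2a1 and Pde4d the groups are separate but close.

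The coactivator Ppargc1a, which drives mitochondrial genes, was higher (59.5 and 58.8 CPM in WT and 149.8 and 143 CPM in ST hearts; log2 fold change 1.31 ± 0.13, adjusted p = 1.09e-05), and so was Sirt1, a deacetylase that acts on it (18.3 and 20.7 CPM in WT and 34.2 and 28.5 CPM in ST hearts; log2 fold change 0.69 ± 0.16, adjusted p = 0.0198). Its relative Ppargc1b had 79.9 and 73.1 CPM in WT and 52.9 and 58.2 CPM in ST hearts (log2 fold change -0.46 ± 0.13, adjusted p = 0.0536), lower in both ST hearts but short of the threshold. The nuclear receptors Ppara (log2 fold change -0.04 ± 0.13, adjusted p = 0.893) and Esrra (log2 fold change -0.21 ± 0.16, adjusted p = 0.526) and the mitochondrial transcription factor Tfam (log2 fold change 0.06 ± 0.16, adjusted p = 0.871) did not pass. Sirt1 was not called without WT replicate 1 (adjusted p = 0.279) or WT replicate 2 (0.0505). Sirt1 was not called by DESeq2.

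Nuclear genes for mitochondrial proteins showed almost no calls. Of 33 complex I subunits 0 were higher and 1 lower, Ndufb8 (175 and 165 CPM in WT and 88.2 and 136 CPM in ST hearts; log2 fold change -0.60 ± 0.17, adjusted p = 0.0471), of 36 subunits of complexes II to V 0 were called, and of 70 mitochondrial ribosomal proteins 0. At an unadjusted p under 0.05 complexes II to V had 0 higher and 5 lower genes and the mitochondrial ribosomal proteins 0 higher and 9 lower. DESeq2 called 0 in either list, and limma-voom 0 in the first and 1, lower, in the second. Their medians were nonetheless under 0, at -0.17, -0.09 and -0.19, and both ST libraries lay below both WT libraries for 19, 14 and 35 of them, beside 24.1% over all genes. Cytosolic ribosomal proteins, which also have short mRNAs, had a median of -0.13 with 23 of 45 below. The libraries differed in this: nuclear respiratory chain genes held 2.76% and 2.75% of counts in the WT hearts, 2.38% in ST replicate 1 and 2.71% in ST replicate 2, and ST replicate 1 was thus the lowest. Without ST replicate 2, when 7.25% of all genes were called lower, 12 of 33 complex I genes and 10 of 70 mitochondrial ribosomal proteins were. Without ST replicate 1, with 2.23% of all genes lower, there were 0 in both lists. Ndufb8 was not called without WT replicate 1 (adjusted p = 0.2), WT replicate 2 (0.0571) or ST replicate 1 (0.151). Ndufb8 had a log2 fold change of -0.95 without ST replicate 2.

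All 13 mitochondrially encoded protein genes passed the count filter, and 0 were called, against 4.80% of all genes. At an unadjusted p under 0.05 there were 2 higher and 0 lower, Mt-nd6 and Mt-atp8, and DESeq2 called 1, Mt-nd6, where limma-voom called 0. Together they held 14.8% and 18.1% of counts in WT and 17.4% and 14.8% in ST hearts (mean ± SD 16.4% ± 2.33 and 16.1% ± 1.82, n = 2 each), a difference of -0.362 percentage points (exact permutation test, two-sided, p = 0.667). The groups overlapped fully, each with 1 heart at 14.8%. The ratio of mitochondrially encoded to nuclear respiratory chain counts was 5.37 and 6.57 in WT and 7.30 and 5.45 in ST hearts, also overlapping.

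Of the complex I genes, Mt-nd6, the only one of the 13 that the light strand encodes, had 678 and 689.8 CPM in WT and 869 and 915 CPM in ST hearts (log2 fold change 0.38 ± 0.13, adjusted p = 0.106), with both ST hearts above both WT hearts. Its adjusted p was 0.0459 with DESeq2 and 0.0352 by edgeR without ST replicate 1, and was above 0.05 in the other 3 leave-one-out fits. Mt-nd2 (7577 and 9858 CPM in WT and 7404 and 6425 CPM in ST hearts; log2 fold change -0.33 ± 0.16, adjusted p = 0.28) and Mt-nd1 (9146 and 10984 CPM in WT and 8462 and 8063 CPM in ST hearts; log2 fold change -0.28 ± 0.15, adjusted p = 0.332) lay below in both ST hearts, and the remaining 10 genes had overlapping groups. Mt-co1, the catalytic subunit of complex IV, had 59096 and 76994 CPM in WT and 78270.0 and 66583 CPM in ST hearts (log2 fold change 0.09 ± 0.18, adjusted p = 0.838). Mt-cyb of complex III had 15594 and 19357 CPM in WT and 16180.0 and 15017 CPM in ST hearts (log2 fold change -0.16 ± 0.16, adjusted p = 0.635). The short ATP synthase gene Mt-atp8 had 716 and 1022 CPM in WT and 1906 and 886 CPM in ST hearts (log2 fold change 0.68 ± 0.25, adjusted p = 0.142), with the high level in ST replicate 1 alone. It was called without WT replicate 2 and without ST replicate 2, and its log2 fold change was 0.95 and 1.13 there. Mt-nd4l (568 and 861 CPM in WT and 1147 and 700.4 CPM in ST hearts) and Mt-nd3 (458 and 624 CPM in WT and 906 and 471 CPM in ST hearts), 2 further short genes, were likewise highest in ST replicate 1 and within the WT range in ST replicate 2. Without ST replicate 1 the log2 fold change was 0.03 for Mt-atp8, -0.03 for Mt-nd4l and -0.20 for Mt-nd3. Without ST replicate 2 it was 0.68 for Mt-nd4l and 0.75 for Mt-nd3, both past the threshold in that fit. Mt-nd5 had 8928 and 12655 CPM in WT and 9524 and 7028 CPM in ST hearts (log2 fold change -0.38, adjusted p = 0.282). Without ST replicate 1 its log2 fold change was -0.62, past the threshold as lower in that fit. Mt-atp8 overlaps Mt-atp6, and Mt-nd4l overlaps Mt-nd4, on the same strand, so that their counts depend on how shared reads were assigned, a step that no header or label describes.

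**Figure D4:**
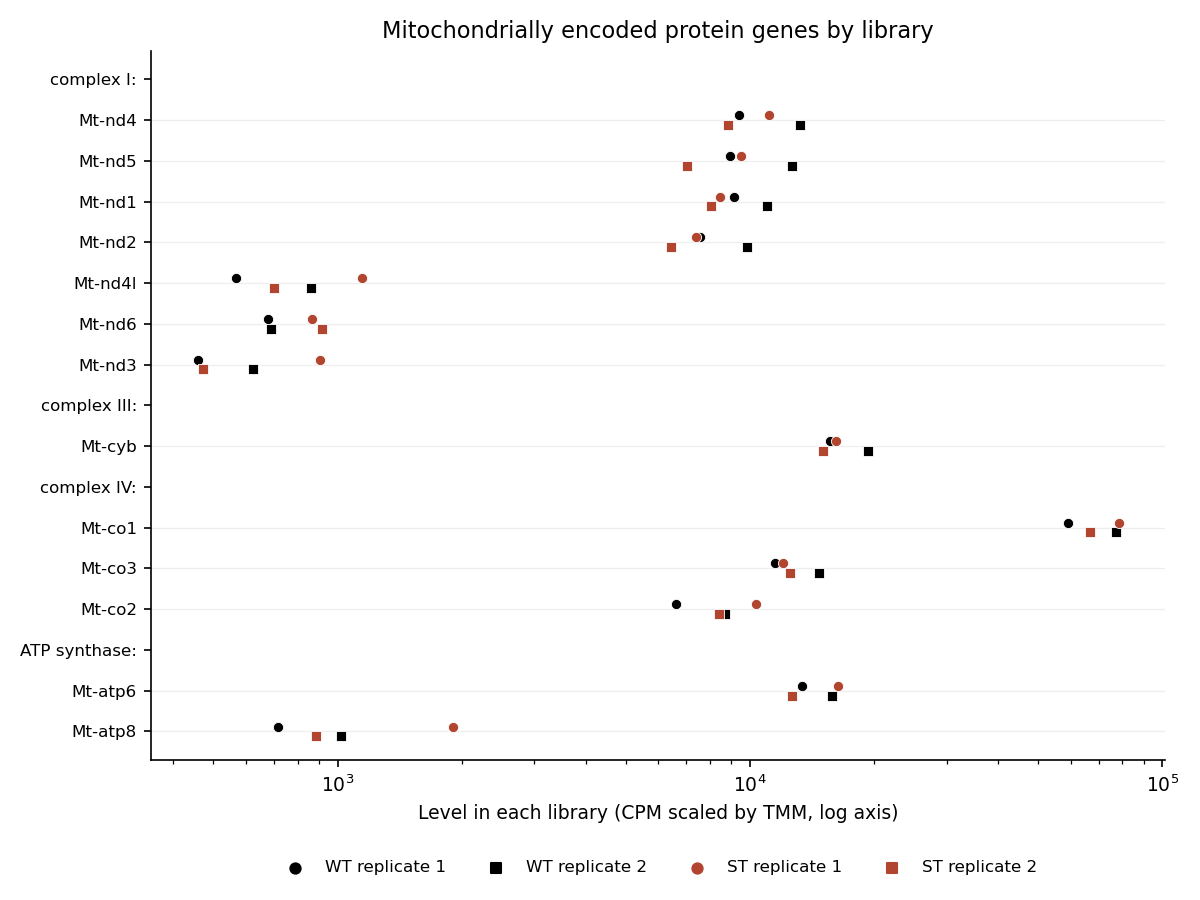
Level of the 13 mitochondrially encoded protein genes in each library (CPM scaled by TMM, log axis), grouped by respiratory complex, WT in black and ST in red, replicate 1 as circles and replicate 2 as squares. The groups interleave in 10 genes; ST replicate 1 stands to the right in Mt-atp8, Mt-nd4l and Mt-nd3, and only Mt-nd6 has both ST hearts to the right of both WT hearts.

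Some muscle genes fell, while most sarcomere genes did not pass the test. Acta1, skeletal alpha-actin, had 599 and 546 CPM in WT and 284 and 172 CPM in ST hearts (log2 fold change -1.33 ± 0.18, adjusted p = 0.000267). Synpo2l, a Z-disc protein, had 317 and 278 CPM in WT and 160.2 and 182 CPM in ST hearts (log2 fold change -0.80 ± 0.13, adjusted p = 0.00165). Myocd, the coactivator of serum response factor that drives muscle genes, had 159 and 161 CPM in WT and 80.5 and 85.4 CPM in ST hearts (log2 fold change -0.95 ± 0.13, adjusted p = 0.000204), and in each of these genes every ST heart was below every WT heart. Hopx, a small homeodomain protein that binds serum response factor, had 34.9 and 27.3 CPM in WT and 14 and 16.8 CPM in ST hearts (log2 fold change -1.03 ± 0.17, adjusted p = 0.00192), and Lrrc10, a heart-specific leucine-rich repeat protein, 437 and 408 CPM in WT and 262 and 320.0 CPM in ST hearts (log2 fold change -0.54 ± 0.14, adjusted p = 0.0285). In the Z-disc list 4 of 31 were lower and 2 higher (2.10% and 2.70% of all genes). The higher ones were Pdlim3, an alpha-actinin-binding protein (48 and 45.3 CPM in WT and 89.4 and 79.7 CPM in ST hearts, log2 fold change 0.86 ± 0.13, adjusted p = 0.000933), and Fhl1 (log2 fold change 0.62 ± 0.14, adjusted p = 0.015). Of 37 sarcomere genes 3 were lower and 1 higher (2.10% and 2.70% of all genes). The higher one was Myom3, an M-band protein (33.7 and 27.9 CPM in WT and 50.6 and 53.1 CPM in ST hearts, log2 fold change 0.74 ± 0.14, adjusted p = 0.00542). Sarcomere genes called higher and lower numbered 1 and 1 without WT replicate 1, 0 and 4 without WT replicate 2, 1 and 5 without ST replicate 1 and 1 and 8 without ST replicate 2. Z-disc genes called higher and lower numbered 1 and 3 without WT replicate 1, 1 and 4 without WT replicate 2 and 4 and 5 without ST replicate 2. Lrrc10 (adjusted p = 0.353) and Fhl1 (0.0654) were not called without WT replicate 1. Lrrc10 (adjusted p = 0.113), Fhl1 (0.257) and Myom3 (0.148) were not called without WT replicate 2.

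All 11 tested markers of heart muscle cells and all 35 tested genes of calcium cycling were without a call by edgeR, DESeq2 or limma-voom. At an unadjusted p under 0.05 the markers had 0 higher and 2 lower and the calcium genes 4 higher and 3 lower. Atp2a2, the calcium pump of the sarcoplasmic reticulum, had 10919 and 12205 CPM in WT and 11107 and 13002 CPM in ST hearts (log2 fold change 0.06 ± 0.15, adjusted p = 0.874), and Ryr2, the calcium release channel there, 6471 and 7112 CPM in WT and 6851 and 7247 CPM in ST hearts (log2 fold change 0.05 ± 0.14, adjusted p = 0.881). The levels of both overlapped between groups. Corin, the protease that activates natriuretic peptides, was higher (114 and 137 CPM in WT and 259.6 and 234 CPM in ST hearts; log2 fold change 0.98 ± 0.14, adjusted p = 0.000309), as was Ace, which makes angiotensin II (13.3 and 14 CPM in WT and 28.6 and 28.6 CPM in ST hearts; log2 fold change 1.07 ± 0.16, adjusted p = 0.000729), while the peptide gene Nppb was lower (log2 fold change -1.38 ± 0.15, adjusted p = 3.63e-05).

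WT replicate 1 differed from WT replicate 2 in several atrial and fetal genes. Hcn4, a pacemaker channel, had 115 and 44.9 CPM in WT and 31.5 and 38 CPM in ST hearts (log2 fold change -1.22 ± 0.27, adjusted p = 0.0156), and Myl4, the atrial light chain, 8.37 and 3.14 CPM in WT and 2.49 and 1.53 CPM in ST hearts (log2 fold change -1.53 ± 0.41, adjusted p = 0.0427). The same heart was highest of the 4 in Nppa, with 167 and 44.5 CPM in WT and 105 and 46.4 CPM in ST hearts, in Myl7, with 18.3 and 11.6 CPM in WT and 11.7 and 5.06 CPM in ST hearts, and in Myh7, with 6623 and 2340.2 CPM in WT and 3249.6 and 1758 CPM in ST hearts, none of which passed. Hcn4 (adjusted p = 0.658) and Myl4 (0.854) were not called without WT replicate 1. Myl4 (adjusted p = 0.059) was not called without ST replicate 2. Hcn4 and Myl4 were not called by DESeq2. Without WT replicate 1 the log2 fold change of Nppa turned from -0.49 to 0.78 (adjusted p = 0.0401). Other atrial genes were higher in both ST hearts: Kcna5, an ultrarapid potassium channel, had 2.90 and 3.76 CPM in WT and 7.38 and 9.78 CPM in ST hearts (log2 fold change 1.37 ± 0.28, adjusted p = 0.00825), and Kcnj3, a channel opened by acetylcholine, 39.7 and 47.8 CPM in WT and 68 and 69.1 CPM in ST hearts (log2 fold change 0.65 ± 0.14, adjusted p = 0.0105). Of 12 atrial genes 4 were higher and 1 lower. Atrial genes called higher and lower numbered 1 and 0 without WT replicate 1, 2 and 3 without WT replicate 2, 4 and 3 without ST replicate 1, 4 and 0 without ST replicate 2 and 4 and 0 with DESeq2. Kcna5 (adjusted p = 0.081) and Kcnj3 (0.341) were not called without WT replicate 1. The part of tissue sampling in these values was not tested.

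Of further ion channels, the sodium channel gene Scn1a (33.7 and 34.2 CPM in WT and 19.7 and 18.4 CPM in ST hearts; log2 fold change -0.83 ± 0.15, adjusted p = 0.0034) was lower, as were Hcn2 (-0.53) and the inward rectifier Kcnj12 (-0.59). Trpm7, a channel for divalent ions, was higher (0.54). Trpv4, opened by osmotic and mechanical stimuli, was higher at low levels (1.45 and 1.41 CPM in WT and 5.43 and 5.89 CPM in ST hearts; log2 fold change 1.97 ± 0.34, adjusted p = 0.00241). The stretch-activated Piezo1 had 37.8 and 36.7 CPM in WT and 35.2 and 35.3 CPM in ST hearts (log2 fold change -0.08 ± 0.14, adjusted p = 0.815). Among cardiac transcription factors, Tbx20, needed to maintain the adult heart muscle, was higher (92.1 and 99 CPM in WT and 156 and 171 CPM in ST hearts; log2 fold change 0.77 ± 0.13, adjusted p = 0.00165), and the Iroquois factors Irx1, Irx3 and Irx5, which pattern the ventricle, were lower; Irx1 had 13.6 and 8.78 CPM in WT and 4.0 and 6.71 CPM in ST hearts (log2 fold change -1.11 ± 0.28, adjusted p = 0.0277). Hcn2 (adjusted p = 0.303), Trpm7 (0.392), Tbx20 (0.0567) and Irx1 (0.423) were not called without WT replicate 1. Hcn2 (adjusted p = 0.165), Kcnj12 (0.389) and Trpm7 (0.148) were not called without WT replicate 2. Hcn2 (adjusted p = 0.0808), Trpm7 (0.0838) and Irx1 (0.0984) were not called without ST replicate 1. Kcnj12 and Irx1 were not called by DESeq2.

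Some receptors for semaphorins and vascular growth factors were lower. Nrp1, a coreceptor of VEGF and semaphorins, had 282 and 332 CPM in WT and 154 and 150.3 CPM in ST hearts (log2 fold change -1.01 ± 0.13, adjusted p = 0.00017), and its relative Nrp2 66.6 and 62 CPM in WT and 26.9 and 23.8 CPM in ST hearts (log2 fold change -1.34 ± 0.14, adjusted p = 2.13e-05). Plxnd1, the endothelial semaphorin receptor that pairs with them, had 206 and 204 CPM in WT and 90.9 and 114 CPM in ST hearts (log2 fold change -1.0 ± 0.14, adjusted p = 0.000285). In all 3 genes both ST hearts lay well below both WT hearts. Aplnr, the receptor of apelin, had 88.5 and 89.4 CPM in WT and 42.4 and 46.6 CPM in ST hearts (log2 fold change -1.0 ± 0.13, adjusted p = 0.000179), and Kdr, the main VEGF receptor, 198 and 232 CPM in WT and 134 and 156 CPM in ST hearts (log2 fold change -0.57 ± 0.14, adjusted p = 0.0235). The netrin receptor Unc5b (-0.76), the arterial ligand Efnb2 (-0.90), the butyrophilin Btnl9 (-1.90) and Notch3 of mural cells (-0.61) were lower too. Plxna2, another plexin, went the other way (69 and 78.3 CPM in WT and 135 and 143 CPM in ST hearts; log2 fold change 0.92 ± 0.13, adjusted p = 0.000392). Nrp2, Nrp1 and Plxnd1 came from the rule for named genes; their grouping, and the choice of Unc5b, Efnb2 and Plxna2, were made after the values were seen. Kdr (adjusted p = 0.0601), Unc5b (0.103), Efnb2 (0.0638) and Notch3 (0.119) were not called without WT replicate 1. Kdr (adjusted p = 0.326), Efnb2 (0.155) and Notch3 (0.0927) were not called without WT replicate 2. Efnb2 was not called by DESeq2.

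Endothelial genes as a list had calls in both directions. Of 24 endothelial markers 2 were higher and 3 lower, against 2.70% and 2.10% of all genes, with a median of -0.07. The lower ones were Kdr, Aplnr and, at low levels, Esm1. Esm1 had 3.46 and 4.39 CPM in WT and 0.712 and 0.589 CPM in ST hearts (log2 fold change -2.54 ± 0.43, adjusted p = 0.00197). It passed the count filter through the WT libraries and so could be called only as lower. Endothelial genes called higher and lower numbered 1 and 2 without WT replicate 2. The defining markers Pecam1 (202 and 198 CPM in WT and 218 and 189 CPM in ST hearts; log2 fold change 0.03 ± 0.13, adjusted p = 0.938) and Cdh5 (168 and 182 CPM in WT and 185 and 195 CPM in ST hearts; log2 fold change 0.12 ± 0.13, adjusted p = 0.665) did not pass. In bulk tissue fewer cells of a type and less RNA per cell cannot be told apart. Higher in ST hearts were Ptprb, a phosphatase that restrains the angiopoietin receptor (399 and 463 CPM in WT and 715 and 734 CPM in ST hearts; log2 fold change 0.75 ± 0.13, adjusted p = 0.00259), Angpt1, the ligand of that receptor (22.2 and 37.3 CPM in WT and 49.8 and 50.2 CPM in ST hearts; log2 fold change 0.77 ± 0.19, adjusted p = 0.0249), Esam, a junction protein (log2 fold change 0.73 ± 0.15, adjusted p = 0.00764), and Lama5, a laminin of vessel basement membranes (189 and 174 CPM in WT and 318 and 352 CPM in ST hearts; log2 fold change 0.88 ± 0.13, adjusted p = 0.000541). Sox7, an endothelial transcription factor picked after its values were seen, had 27.2 and 28.9 CPM in WT and 46.1 and 53.6 CPM in ST hearts (log2 fold change 0.83 ± 0.14, adjusted p = 0.00241). Ptprb (adjusted p = 0.135) and Angpt1 (0.567) were not called without WT replicate 1. Esam (adjusted p = 0.118) was not called without WT replicate 2. Angpt1 had a log2 fold change of 1.16 without WT replicate 2. In the hypoxia and VEGF list 3 of 27 were higher and 3 lower, and Vegfa itself had 623 and 622 CPM in WT and 568 and 675 CPM in ST hearts (log2 fold change 0.00 ± 0.13, adjusted p = 0.995). Hypoxia and VEGF genes called higher and lower numbered 1 and 2 without WT replicate 2.

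**Figure D5:**
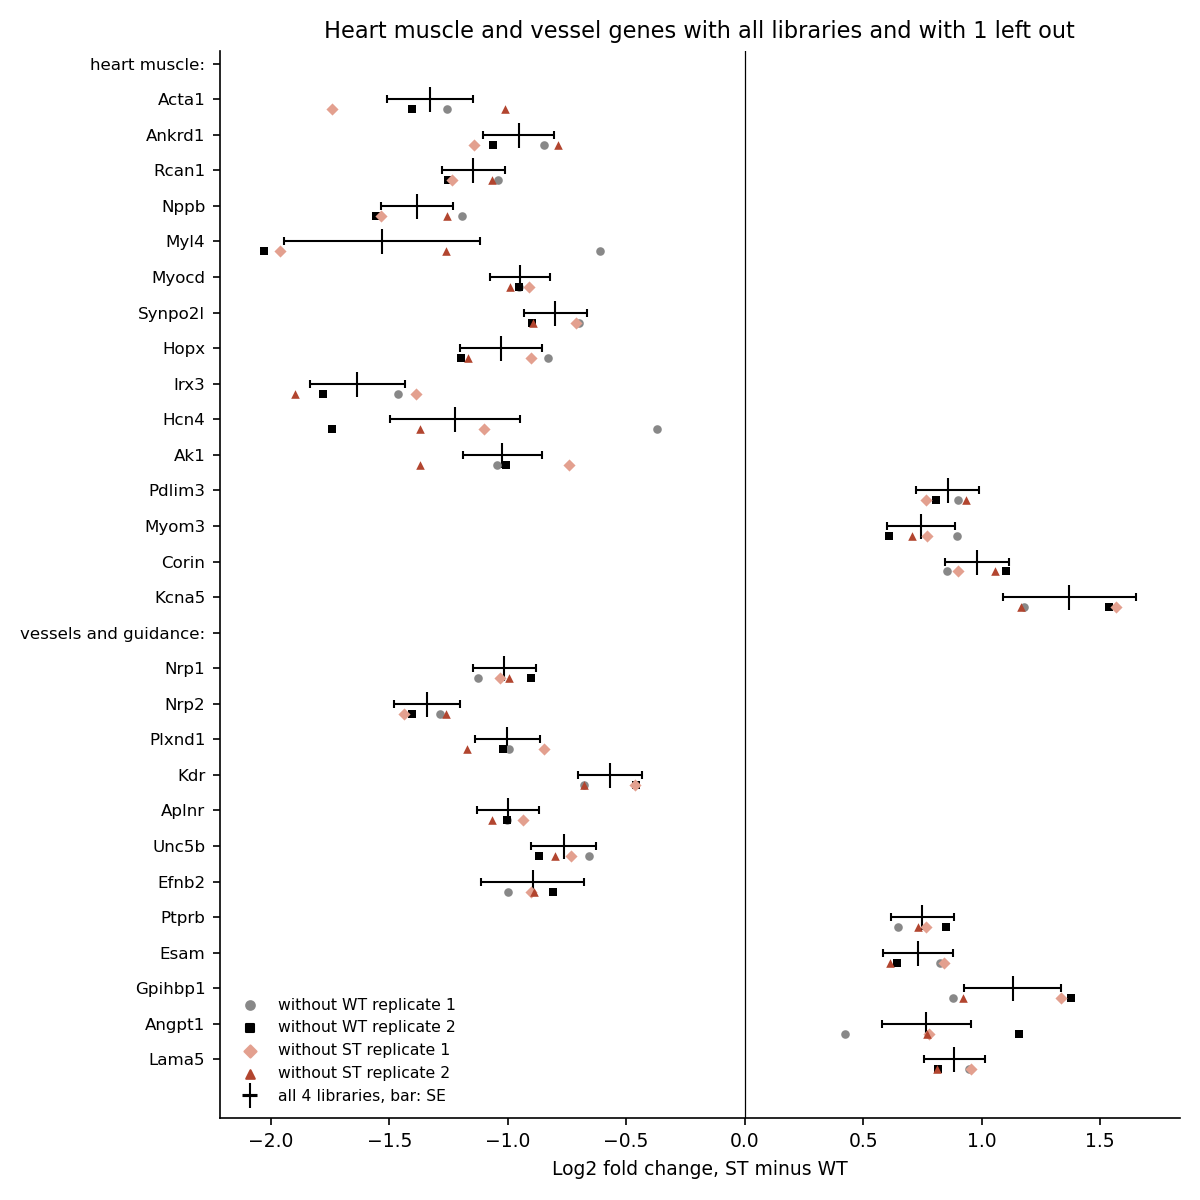
Log2 fold change, ST minus WT, of heart muscle and vessel genes: the vertical tick is the value with all 4 libraries with a bar of 1 standard error, and the symbols below it are the values with 1 library left out. Values are shown for called genes only. For Hcn4 and Myl4 the value without WT replicate 1 lies much nearer to 0 than their other values, while those of Myocd, Aplnr and Lama5 stay close together.

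In the list of TGF-beta and BMP signalling 4 of 32 were higher and 0 lower (2.70% and 2.10% of all genes), with a median of 0.18. Smad7, which blocks the receptors, had 51.4 and 40.9 CPM in WT and 87.3 and 87.3 CPM in ST hearts (log2 fold change 0.91 ± 0.14, adjusted p = 0.000885). Skil, which represses SMAD targets, had 66.4 and 56.9 CPM in WT and 139.6 and 88.4 CPM in ST hearts (log2 fold change 0.89 ± 0.18, adjusted p = 0.00673), and Id1, a BMP target, 23.4 and 23.8 CPM in WT and 36 and 49.1 CPM in ST hearts (log2 fold change 0.84 ± 0.17, adjusted p = 0.00606). The ligand Tgfb1 (log2 fold change -0.28 ± 0.20, adjusted p = 0.49) and the receptor Tgfbr2 (log2 fold change -0.02 ± 0.13, adjusted p = 0.958) did not pass the test. TGF-beta genes called higher and lower numbered 5 and 1 without ST replicate 1. Skil had a log2 fold change of 0.51 without ST replicate 1.

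Matrix genes had 6 higher members and 1 lower of 57 (2.70% and 2.10% of all genes). Besides Thbs1 and Lama5, fibronectin (Fn1) had 90.4 and 71 CPM in WT and 154 and 110.0 CPM in ST hearts (log2 fold change 0.71 ± 0.16, adjusted p = 0.0183) and the protease Adamts9 40.8 and 40.9 CPM in WT and 83.3 and 81.7 CPM in ST hearts (log2 fold change 1.01 ± 0.13, adjusted p = 0.000159). Emilin1, an elastic fibre protein, was lower (44 and 34.8 CPM in WT and 23.1 and 23.6 CPM in ST hearts; log2 fold change -0.76 ± 0.16, adjusted p = 0.00779). The other higher members were P4ha1 (0.52) and Plod2 (0.79), which hydroxylate collagen. Of 25 collagens 1 was higher, Col14a1 (112 and 82.2 CPM in WT and 181 and 129.6 CPM in ST hearts; log2 fold change 0.68 ± 0.17, adjusted p = 0.0277), and 2 were lower, Col5a3 (22.7 and 20.4 CPM in WT and 10.1 and 11.9 CPM in ST hearts; log2 fold change -0.98 ± 0.18, adjusted p = 0.00322) and Col6a6 (-0.56). Collagen genes called higher and lower numbered 1 and 1 without WT replicate 1, 0 and 1 without WT replicate 2, 0 and 2 without ST replicate 1, 2 and 5 without ST replicate 2 and 1 and 1 with DESeq2. The main fibrillar chain Col1a1 had 341 and 276 CPM in WT and 283 and 272 CPM in ST hearts (log2 fold change -0.15 ± 0.13, adjusted p = 0.595), and 0 of 17 fibroblast markers were called by edgeR, DESeq2 or limma-voom, with 4 higher and 0 lower at an unadjusted p under 0.05. Fn1 (adjusted p = 0.218), P4ha1 (0.34), Plod2 (0.063), Col14a1 (0.335) and Col6a6 (0.413) were not called without WT replicate 2. Emilin1 (adjusted p = 0.265), P4ha1 (0.272), Plod2 (0.0781) and Col6a6 (0.112) were not called without WT replicate 1. P4ha1 (adjusted p = 0.0666), Plod2 (0.0533) and Col14a1 (0.0836) were not called without ST replicate 1. Fn1 had a log2 fold change of 0.44 without ST replicate 1. P4ha1 and Col6a6 were not called by DESeq2. Matrix genes called higher and lower numbered 6 and 0 without WT replicate 1, 3 and 2 without WT replicate 2, 6 and 3 without ST replicate 1 and 16 and 2 without ST replicate 2.

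Lower immune genes were counted above in the interferon and antigen presentation lists (17 of 38 and 11 of 25), and others are named here. Uba7, the enzyme that activates ISG15, had 13.1 and 12.4 CPM in WT and 3.02 and 3.42 CPM in ST hearts (log2 fold change -1.99 ± 0.24, adjusted p = 8.06e-05), and the immune checkpoint ligand Cd274 (PD-L1), picked after its values were seen, 11.2 and 10.4 CPM in WT and 4.63 and 3.30 CPM in ST hearts (log2 fold change -1.42 ± 0.25, adjusted p = 0.00241). Prdm1, a repressor known from plasma cells and T cells, also picked so, had 5.47 and 6.43 CPM in WT and 1.69 and 2.0 CPM in ST hearts (log2 fold change -1.68 ± 0.32, adjusted p = 0.00523), and Nos2, inducible nitric oxide synthase, 3.35 and 4.23 CPM in WT and 0.801 and 0.824 CPM in ST hearts (log2 fold change -2.19 ± 0.42, adjusted p = 0.00467). These are low-level genes, with ST hearts at between 0.801 and 4.63 CPM. Nos2 passed the count filter through the WT libraries and so could be called only as lower. Of the cytokine and NF-kappaB list, 4 of 37 were lower and 3 higher. Tnfaip3, a brake on NF-kappaB, had 17.9 and 15.1 CPM in WT and 7.56 and 8.60 CPM in ST hearts (log2 fold change -1.04 ± 0.20, adjusted p = 0.00442), and the chemokine receptor Cxcr4 12.2 and 16.6 CPM in WT and 6.85 and 5.54 CPM in ST hearts (log2 fold change -1.19 ± 0.23, adjusted p = 0.00462); higher were Il1r1, Il33 (1.27) and Osmr (0.79). Tnfaip3 (adjusted p = 0.0701), Il1r1 (0.0828), Osmr (0.164) and Psmb10 (0.171) were not called without WT replicate 1. Il1r1 (adjusted p = 0.073) was not called without WT replicate 2. Il1r1 (adjusted p = 0.391), Il33 (0.241) and Psmb10 (0.0816) were not called without ST replicate 1. Il1r1, Il33 and Psmb10 were not called by DESeq2. Cytokine genes called higher and lower numbered 1 and 1 without WT replicate 1, 1 and 3 without ST replicate 1, 5 and 6 without ST replicate 2 and 1 and 2 with DESeq2. Interferon genes called higher and lower numbered 1 and 8 without WT replicate 1, 1 and 10 without WT replicate 2 and 1 and 11 with DESeq2. Antigen presentation genes called higher and lower numbered 0 and 7 without WT replicate 1.

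Some immune genes rose against that direction. Of the interferon list 1 member was higher, Ifit1, at low levels. It had 0.781 and 0.314 CPM in WT and 8.27 and 6.24 CPM in ST hearts (log2 fold change 3.62 ± 0.42, adjusted p = 6.41e-05). Complement component C4a had 15.3 and 11.4 CPM in WT and 46.7 and 21.2 CPM in ST hearts (log2 fold change 1.34 ± 0.27, adjusted p = 0.00778), with ST replicate 1 well above the other libraries. Bcl6, a repressor that opposes Prdm1, had 19.5 and 18.2 CPM in WT and 53.7 and 33.4 CPM in ST hearts (log2 fold change 1.21 ± 0.20, adjusted p = 0.0013), and Cebpb, a bZIP factor of acute-phase genes, 17.2 and 16.6 CPM in WT and 32.8 and 43.7 CPM in ST hearts (log2 fold change 1.17 ± 0.17, adjusted p = 0.000541). Pla2g2d, a secreted phospholipase of resident immune cells, had 3.01 and 2.20 CPM in WT and 14.1 and 9.30 CPM in ST hearts (log2 fold change 2.15 ± 0.29, adjusted p = 0.000256), and Il2ra, the interleukin-2 receptor alpha chain, 1.34 and 0.627 CPM in WT and 5.16 and 4.36 CPM in ST hearts (log2 fold change 2.20 ± 0.40, adjusted p = 0.00368). Lyve1, a hyaluronan receptor of lymphatic endothelium and resident macrophages, had 4.69 and 2.98 CPM in WT and 13.1 and 8.01 CPM in ST hearts (log2 fold change 1.44 ± 0.29, adjusted p = 0.00778). Bcl6, Pla2g2d and Il2ra were picked after their values were seen. Ifit1 and Il2ra passed the count filter through the ST libraries and so could be called only as higher. Of 30 complement and coagulation genes 3 were higher and 0 lower (2.70% and 2.10% of all genes), with a median of 0.24. Complement genes called higher and lower numbered 9 and 0 without ST replicate 2. Lyve1 (adjusted p = 0.07) was not called without ST replicate 1. C4a had a log2 fold change of 0.64 without ST replicate 1. C4a was not called by DESeq2. RT1, Gbp and C4 genes have close copies, between which the counting can divide reads.

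Axonemal genes did not move together. Of 59 listed, 16 were tested. The genes Dnah5, Dnah7 and Efcab6 were lower, and Rfx2, a transcription factor of ciliary genes, was higher (2.79 and 3.76 CPM in WT and 9.87 and 8.24 CPM in ST hearts; log2 fold change 1.49 ± 0.27, adjusted p = 0.00343), as was the kinase gene Nek10 (0.781 and 1.88 CPM in WT and 7.12 and 5.42 CPM in ST hearts; log2 fold change 2.32 ± 0.39, adjusted p = 0.00189), picked after its values were seen. Nek10 passed the count filter through the ST libraries and so could be called only as higher. Dnah11 (log2 fold change -0.21 ± 0.23, adjusted p = 0.686), another dynein heavy chain, and Rfx3 (log2 fold change 0.00 ± 0.27, adjusted p = 0.999) did not pass. The counts of 1 higher and 3 lower were the same in all 4 leave-one-out fits. Akr1b8, an aldo-keto reductase, was also among the strongest lower genes (31.7 and 40.9 CPM in WT and 8.98 and 7.77 CPM in ST hearts; log2 fold change -2.10 ± 0.18, adjusted p = 2.96e-06), as was Phf24, a PHD finger gene (36.7 and 28.5 CPM in WT and 12.6 and 11.1 CPM in ST hearts; log2 fold change -1.46 ± 0.18, adjusted p = 8.06e-05).

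Abundant genes with strong rises outside the lists were Ivns1abp, a kelch protein that binds actin (209.8 and 233 CPM in WT and 643 and 545 CPM in ST hearts; log2 fold change 1.43 ± 0.14, adjusted p = 9.64e-06), Nudt4, a pyrophosphatase (236 and 278 CPM in WT and 631 and 544 CPM in ST hearts; log2 fold change 1.19 ± 0.14, adjusted p = 6.31e-05), and Ell2, a transcription elongation factor (17.3 and 18.2 CPM in WT and 74.5 and 57 CPM in ST hearts; log2 fold change 1.90 ± 0.16, adjusted p = 2.3e-06). Coq10b, a coenzyme Q-binding protein, had 9.04 and 11.1 CPM in WT and 39.4 and 26.1 CPM in ST hearts (log2 fold change 1.72 ± 0.21, adjusted p = 8.68e-05), with ST replicate 1 above ST replicate 2. Of amino acid transporters, Slc38a2 had 276 and 271 CPM in WT and 459 and 441 CPM in ST hearts (log2 fold change 0.72 ± 0.13, adjusted p = 0.00238), and Slc3a2, the heavy chain of several transporters, 30.2 and 25.9 CPM in WT and 41.7 and 50.1 CPM in ST hearts (log2 fold change 0.70 ± 0.15, adjusted p = 0.0127). In the solute carrier list 6 of 37 were higher and 3 lower (2.70% and 2.10% of all genes). Solute carrier genes called higher and lower numbered 0 and 2 without WT replicate 1, 0 and 2 without WT replicate 2 and 8 and 5 without ST replicate 2. Tfrc, the transferrin receptor, had 47 and 56.8 CPM in WT and 98.7 and 72.5 CPM in ST hearts (log2 fold change 0.73 ± 0.16, adjusted p = 0.0124). Slc38a2 (adjusted p = 0.0565) and Tfrc (0.197) were not called without WT replicate 1. Slc38a2 (adjusted p = 0.0591) and Slc3a2 (0.181) were not called without WT replicate 2.

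Of 34 cell cycle genes 5 were lower and 0 higher, with a median of -0.63. Besides Mki67 and Top2a these were Prc1, which bundles the spindle midzone (5.02 and 2.98 CPM in WT and 1.42 and 1.06 CPM in ST hearts; log2 fold change -1.69 ± 0.40, adjusted p = 0.0223), Hmgb2 (-1.34) and Ccnd2, a D cyclin (725 and 588 CPM in WT and 427 and 459 CPM in ST hearts; log2 fold change -0.57 ± 0.14, adjusted p = 0.0249). The histone genes H3c13 (42.7 and 27.1 CPM in WT and 14.4 and 14.4 CPM in ST hearts; log2 fold change -1.29 ± 0.19, adjusted p = 0.000737) and H3c1 (log2 fold change -1.61 ± 0.39, adjusted p = 0.0243), picked after their values were seen, were lower as well; they are near-identical copies in a multigene family, between which reads may be divided. Top2a (adjusted p = 0.431), Prc1 (0.463), Hmgb2 (0.209), Ccnd2 (0.55) and H3c1 (0.426) were not called without WT replicate 1. H3c1 (adjusted p = 0.0581) was not called without ST replicate 1. Top2a, Prc1, Hmgb2 and H3c1 were not called by DESeq2. Prc1 passed the count filter through the WT libraries and so could be called only as lower. Cell cycle genes called higher and lower numbered 0 and 1 without WT replicate 1, 0 and 8 without ST replicate 1, 1 and 9 without ST replicate 2 and 0 and 2 with DESeq2.

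Ribosome and protein folding lists had between 6.0% and 12.1% of members called, beside 4.80% of all genes. Of 45 cytosolic ribosomal proteins 0 were higher and 3 lower: Rpl30 (44.4 and 43.6 CPM in WT and 24.4 and 26.5 CPM in ST hearts; log2 fold change -0.79 ± 0.14, adjusted p = 0.00306), Rps23 (-0.61) and Rps16 (-0.53), genes with many processed copies. Heat shock genes had 2 higher and 2 lower of 37, endoplasmic reticulum stress genes 3 and 1 of 33, and ubiquitin and autophagy genes 3 and 0 of 50; Klhl38, a substrate adaptor of ubiquitin ligases in muscle, had 34.3 and 36.7 CPM in WT and 58.4 and 55.4 CPM in ST hearts (log2 fold change 0.68 ± 0.14, adjusted p = 0.00629). The signal recognition particle RNA (Metazoa_SRP), a multi-copy family, had 8907 and 7444 CPM in WT and 4184 and 6048 CPM in ST hearts (log2 fold change -0.68 ± 0.18, adjusted p = 0.0332), and RNase_MRP, another structural RNA, 42.4 and 47.1 CPM in WT and 22.3 and 30.9 CPM in ST hearts (log2 fold change -0.76 ± 0.16, adjusted p = 0.0124). Cytosolic ribosomal protein genes called higher and lower numbered 0 and 1 without WT replicate 1 and 1 and 9 without ST replicate 2. Heat shock genes called higher and lower numbered 0 and 0 without WT replicate 1, 0 and 1 without WT replicate 2, 2 and 1 without ST replicate 1, 4 and 6 without ST replicate 2 and 0 and 1 with DESeq2. Endoplasmic reticulum stress genes called higher and lower numbered 2 and 0 without WT replicate 1, 1 and 0 without WT replicate 2, 4 and 2 without ST replicate 1, 4 and 2 without ST replicate 2 and 3 and 0 with DESeq2. Ubiquitin and autophagy genes called higher and lower numbered 0 and 0 without WT replicate 1, 0 and 1 without WT replicate 2, 5 and 0 without ST replicate 1 and 4 and 7 without ST replicate 2. Rps23 (adjusted p = 0.382), Rps16 (0.42), Klhl38 (0.174) and Metazoa_SRP (0.296) were not called without WT replicate 1. Rps16 (adjusted p = 0.0876), Klhl38 (0.0544) and RNase_MRP (0.058) were not called without WT replicate 2. Rps16 (adjusted p = 0.0526) and Metazoa_SRP (0.0789) were not called without ST replicate 1. Metazoa_SRP was not called by DESeq2.

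Clock genes had 1 higher and 3 lower of 22 (2.70% and 2.10% of all genes). Per2, a repressor of the clock and also a cAMP and glucocorticoid target, had 89.1 and 109 CPM in WT and 143 and 146 CPM in ST hearts (log2 fold change 0.55 ± 0.13, adjusted p = 0.0265). Bhlhe41, another repressor, had 40.8 and 39.7 CPM in WT and 22.7 and 25.9 CPM in ST hearts (log2 fold change -0.73 ± 0.15, adjusted p = 0.00682), and the other lower genes were Dbp and Nr1d1. The activator Bmal1 (2.57 and 2.82 CPM in WT and 1.25 and 1.65 CPM in ST hearts; log2 fold change -0.90 ± 0.40, adjusted p = 0.233) and Per3 (log2 fold change 0.11 ± 0.13, adjusted p = 0.684) did not pass. Per2 (adjusted p = 0.553), Bhlhe41 (0.0799), Dbp (0.0754) and Nr1d1 (0.0544) were not called without WT replicate 1. Per2 (adjusted p = 0.0612), Dbp (0.0787) and Nr1d1 (0.112) were not called without WT replicate 2. Clock genes called higher and lower numbered 0 and 0 without WT replicate 1, 0 and 1 without WT replicate 2, 3 and 3 without ST replicate 1 and 2 and 4 without ST replicate 2. The hour of collection is not in the labels, and its part in these values was not tested.

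Markers of other cell types gave the following background to these groups. Of 27 listed genes of T, B and NK cells 5 were tested and 0 called, and 1 had 0 counts in every library, with a median of -0.92; their summed level was 28.9 and 27.9 CPM in WT and 22.5 and 21.6 CPM in ST hearts. Of 18 tested macrophage genes 2 were higher, Lyve1 and Folr2, and 0 lower (2.70% and 2.10% of all genes). Their sums, 211 and 157 CPM in WT against 238 and 192 CPM in ST hearts, overlap. Mesothelial and epicardial markers were 4 higher of 8 tested, with sums of 66.3 and 64.6 CPM in WT and 126 and 108 CPM in ST hearts. Aldh1a1 held most of these sums (40.8 and 39.7 CPM in WT, 77.6 and 70.3 CPM in ST hearts). Msln had 1 and 1 counts in WT and 57 and 11 in ST hearts, and Upk3b 0 and 1 against 16 and 11. Both passed the count filter through the ST libraries and so could be called only as higher. The same holds for Folr2 and for the globin gene Hba-a3. Msln was called in 3 and Upk3b in 2 of the leave-one-out fits. Gpm6a, another of the markers, had 4.02 and 3.14 CPM in WT and 10.4 and 6.83 CPM in ST hearts (log2 fold change 1.26 ± 0.29, adjusted p = 0.0165). Mesothelial and epicardial genes called higher and lower numbered 1 and 0 without ST replicate 1 and 2 and 0 with DESeq2. Erythroid markers had 2 higher of 5, the alpha-globins Hba-a2 and Hba-a3, with sums of 167 and 202 CPM against 328 and 420 CPM. Smooth muscle and pericyte markers had 0 higher and 1 lower of 15, Notch3, and Schwann cell and neuron markers 0 of 7. At an unadjusted p under 0.05 the T, B and NK cell genes had 0 higher and 2 lower and the Schwann cell and neuron genes 1 higher and 0 lower, and DESeq2 and limma-voom called 0 in both. The part of cell makeup in the immune, vascular and matrix groups was not tested. Gpm6a was not called without WT replicate 2 (adjusted p = 0.0526) or ST replicate 1 (0.156). Gpm6a was not called by DESeq2.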

How the data were processed

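RNA-seq was done on bulk tissue of 4 rat hearts. The values are expected counts per gene name, as deposited by the authors in 1 table for the 2-month hearts: unscaled, with 6.14% to 7.06% of values in a column not whole. Aligner, counter and strand setting are not named in any header or label. Per the submitters' processing notes the builds are GRCm38 and mm10, mouse builds, although the gene names are those of rat. Positions of genes were therefore taken only from RefSeq (GRCr8), for the promoter stretches.

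Counts were rounded, filtered with filterByExpr (12121 of 25600 names kept), scaled by TMM and tested with the quasi-likelihood F test of edgeR 4.0.16 in R 4.3.3, two-sided, with Benjamini-Hochberg adjustment and a threshold of 0.05. The standard error is the absolute log2 fold change over the square root of F, an approximation that is poor near 0 counts. Shares of counts were compared by an exact permutation test (scipy 1.17.1). When tested on simulated counts, the calls held 34.4% of the genes changed 1.5-fold, 76.9% of those changed 2-fold and 98.5% of those changed 4-fold. Of 138 simulated calls 1.45% were false. The simulation gave every gene the spread that the fitted trend set for its level, and no other differences between hearts. Its shares of recovered and false calls may therefore not hold for the real calls. Floors of 3 counts cover counting error only.

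Members and the 65 gene lists were chosen with earlier results of these data known, so that no list is independent evidence of its direction. Named genes are all mitochondrially encoded ones, the 15 largest, smallest and most certain changes in each direction, the 15 most abundant called genes, up to 5 called members of each list and a set of heart genes; others named are said to be so or are list members. Genes of the lists beyond these 5, and genes given as not passing, were chosen as examples. Coq10b and RNase_MRP were not picked by the rule for named genes and are examples too. Alternatives were other scalings and filters, DESeq2 1.42.0, limma-voom (limma 3.58.1), a block for the replicate number, a minimum fold of 1.5, a fit lacking haemoglobin and mitochondrially encoded genes, and fits lacking 1 library each. Some called genes are not reported here.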

Additional observations from a re-analysis of the deposited data

How the results depend on the processing

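The count of 582 genes (327 higher, 255 lower) was 568 with DESeq2's size factors, 607 by library size only, 545 with a filter of 5 CPM, 557 with limma-voom and 551 without mitochondrially encoded and haemoglobin genes. It moved by over 1.5 times with no filter on low counts (1019, with 574 higher and 445 lower), with DESeq2 (355, with 211 and 144) and with a fold of at least 1.5 (90, with 53 and 37). With 1 library left out it ran from 271 without WT replicate 1 to 2013 without ST replicate 2, the higher genes from 157 to 1104 and the lower ones from 114 to 909 in the same fits. There the lone library is assumed to vary like the other group. A block for the replicate number gave 636 genes and ended none of the calls of named genes; the labels do not pair the hearts, and deviations of same-numbered hearts from their group means correlated with r = 0.0712 across genes. Of 188 named genes past the threshold, calls were lost for 38 under DESeq2, 133 with the minimum fold, 87 without WT replicate 1, 58 without WT replicate 2, 25 of 186 tested without ST replicate 1 and 2 without ST replicate 2. Log2 fold changes that changed sign, in named genes not past the threshold, ran over the leave-one-out fits from -0.0291 to 0.69 for Mt-nd4l, -0.201 to 0.746 for Mt-nd3, -0.409 to 0.0695 for Mt-nd4, -0.262 to 0.0851 for Mt-co3, -0.0862 to 0.283 for Mt-co1, -0.207 to 0.168 for Mt-atp6, -0.195 to 0.114 for Myh6, -1.41 to 0.0995 for Myh7, -1.22 to 0.775 for Nppa, -0.0572 to 0.167 for Atp2a2, -0.0106 to 0.113 for Ryr2, -0.259 to 0.00623 for Gja1 and -0.309 to 0.0106 for Col1a1. The causes were not tested. With 2 hearts a group and 6.54 to 11.3 M counts a library, changes near 1.5-fold were mostly missed in simulated counts.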
